A study of Homo sapiens with 6 samples.

Results

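The cytosolic heat shock response was followed through 10 genes: the transcription factor gene HSF1 and the chaperone genes HSPA1A, HSPA1B, HSPA8, HSP90AA1, HSP90AB1, HSPB1, DNAJB1, HSPH1 and BAG3. They were taken by gene name from the deposited table, which lists 19973 genes, and all 10 were present and passed the filter on low counts that left 12874 genes for testing. The study asked how knockdown of NUF2, a kinetochore protein of the NDC80 complex that ties chromosomes to spindle microtubules, changes gene expression in OVCAR3, an established human epithelial ovarian cancer cell line. Poly(A) RNA was sequenced from 2 groups of 3 libraries each. Cells of the control group, given as WT in the labels, were transfected with shNC, a short hairpin RNA used as negative control, and cells of the other group with shNUF2, a hairpin against NUF2. Both groups were then kept in puromycin to establish stable lines, so that the controls also carry a hairpin vector and a resistance marker. The knockdown libraries represent 1 hairpin against NUF2, cloned behind a U6 promoter. The labels do not say whether libraries of a group came from separate transfections, and p-values then measure only the spread between these libraries, which may be technical.

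In the heat shock response, heat, oxidants and other causes of protein misfolding release HSF1 from chaperones that hold it inactive. HSF1 then forms trimers, binds repeated GAA units known as heat shock elements, and drives the transcription of chaperone genes. HSP70 proteins bind exposed hydrophobic stretches of unfolded clients with the help of J-domain proteins and nucleotide exchange factors, HSP90 proteins finish the folding of kinases and receptors, and small heat shock proteins hold clients in a soluble state. Cancer cells commonly rely on this machinery.

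With shNUF2, 8 of the 10 genes rose, 0 fell, and HSF1 and DNAJB1 did not pass the test. The largest of the 8 increases was in HSPA1A, an inducible HSP70, at 2.74-fold, and the smallest was in HSP90AA1, the inducible cytosolic HSP90, at 1.57-fold. The increases therefore reached constitutive and inducible chaperones of the HSP70, HSP90, HSP110 and small heat shock protein families and the co-chaperone BAG3, whereas the J-domain gene DNAJB1 and the regulator HSF1 had TMM-scaled counts that overlapped between the 2 groups. "Rose" and "fell" are used for a Benjamini-Hochberg adjusted p under 0.05 in the quasi-likelihood test of edgeR over all genes tested. By that rule 33.9% of all genes tested rose and 33.8% fell, so that a call of this kind was common in these libraries.

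The promoters of these genes are shown first, because HSF1 is known to act through short elements in them. The RefSeq table (GRCh38.p14, 250 bases before to 50 after each transcription start) contained promoters for 9 of the 10 genes, with 14 start sites in all, and HSF1 was not among them. The letters searched were GAANNTTC and TTCNNGAA, each of which is its own reverse complement, so that both strands are read at once, and overlapping matches were counted separately. Such an element of 2 units was found at 8 of the 14 start sites (57.1%) and in at least 1 promoter of 7 of the 9 genes, against 4737 of 35116 promoters in the table (13.5%). Among the start sites of genes tested it was found at 1559 of 15130 (10.3%). The genes were listed for their part in the heat shock response, so such shares describe that list and not an effect of shNUF2. A run of 3 units, GAANNTTCNNGAA or TTCNNGAANNTTC, was found at 3 of the 14 start sites (21.4%), those of HSPA8, HSP90AA1 and HSP90AB1, against 172 of 35116 promoters (0.490%). The sequences below are printed 5′ to 3′ on the strand of the gene, and capitals mark the matches to either search. The HSPA1A window (chr6:31815411-31815470, plus strand) and the HSPA1B window (chr6:31827607-31827666, plus strand) show the same isolated element in nearly the same surroundings. Both windows of HSPA8 (chr11:123062346-123062375 and chr11:123062171-123062200, minus strand), the window of HSP90AA1 at start site 2 (chr14:102087104-102087133, minus strand) and both windows of HSP90AB1 at start site 3 (chr6:44247754-44247813 and chr6:44247807-44247866, plus strand) show the runs of 3 units. The windows of HSPB1 (chr7:76302465-76302524, plus strand) and DNAJB1 at start site 2 (chr19:14518426-14518485, minus strand) are also shown, and a match 2 bases after start site 3 of DNAJB1 is not printed.
HSPA1A: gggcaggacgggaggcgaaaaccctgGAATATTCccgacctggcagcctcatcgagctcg
HSPA1B: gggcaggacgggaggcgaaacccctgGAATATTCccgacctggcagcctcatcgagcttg
HSPA8, distal: ggcgagcttGAAAGTTCCAGAAcgctgcgg
HSPA8, proximal: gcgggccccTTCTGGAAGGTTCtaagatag
HSP90AA1: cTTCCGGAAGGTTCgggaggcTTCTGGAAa
HSP90AB1, distal: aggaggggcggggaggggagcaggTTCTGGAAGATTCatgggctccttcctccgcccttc
HSP90AB1, proximal: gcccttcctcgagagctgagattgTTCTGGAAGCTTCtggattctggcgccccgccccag
HSPB1: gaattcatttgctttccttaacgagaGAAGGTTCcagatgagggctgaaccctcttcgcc
DNAJB1: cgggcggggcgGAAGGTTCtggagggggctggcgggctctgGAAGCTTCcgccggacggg

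The promoters of HSPA1A and HSPA1B matched at 217 of 230 aligned bases (94.3%) at an offset of 1 base. Their elements were centred 102 and 101 bases before the start. Elements of HSPA8 lay far from and close to its start, with centres from -226 to -46 bases. No match was found in the windows of BAG3 and HSPH1, which says only that these letters are not in those 300-base windows. Presence of the letters did not separate the genes that rose from those that did not, since DNAJB1 has matches at 2 of its 3 start sites while BAG3 and HSPH1 have none. A match is a description of the sequence, and binding of HSF1 was not measured.

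**Figure D1:**
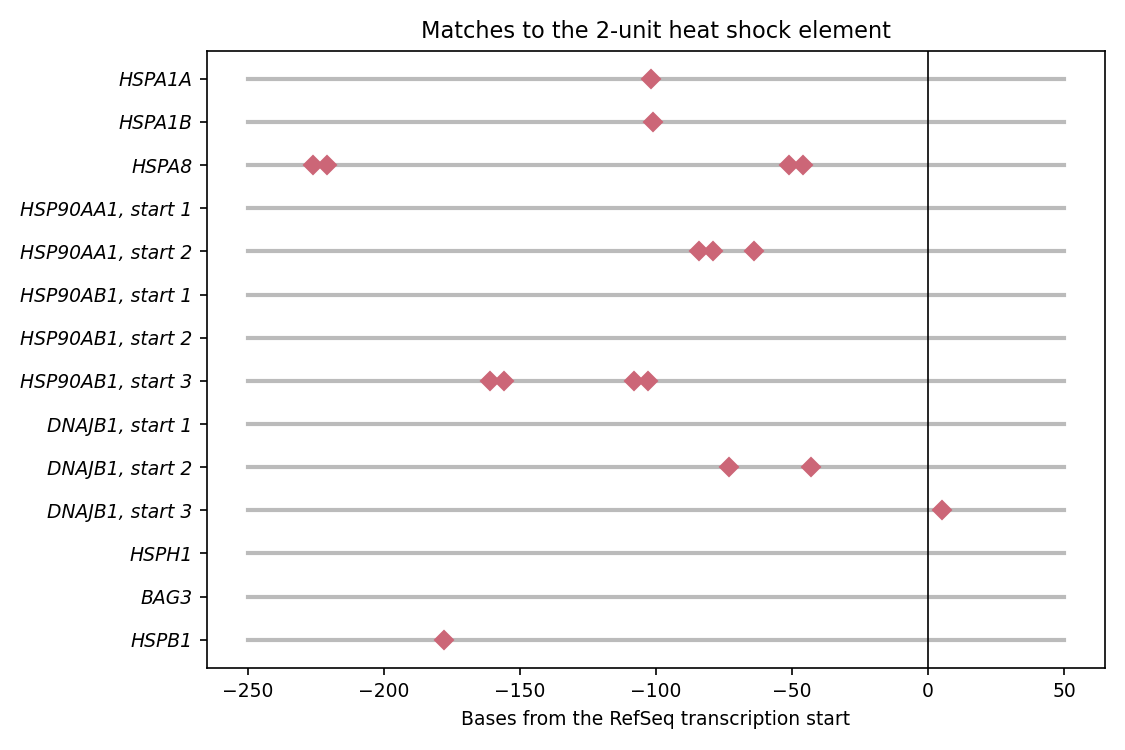
Positions of heat shock elements of 2 units (diamonds, at their centres) in the RefSeq promoters of 9 genes, 1 grey line for each of 14 start sites, in bases from the transcription start (vertical line). Matches are seen at 8 of the 14 start sites, with HSPA8 and HSP90AB1 having 4 each and BAG3 and HSPH1 having none.

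The knockdown was seen in every library labelled shNUF2. NUF2 measured 63.5, 68.6 and 63.5 CPM (counts scaled to a common library size by TMM) with shNC and 20.8, 22.3 and 25.5 CPM with shNUF2, a log2 fold change of -1.51 (SE 0.08, edgeR adjusted p = 2.17e-15). Total counts ranged from 14115009 to 16995452 per library with shNC and from 13057534 to 15227460 with shNUF2. Mitochondrially encoded genes took 3.57% to 3.85% of the counts with shNC and 2.38% to 2.63% with shNUF2, and the part of this shift in the results below was not tested. Of 10 markers of epithelial ovarian carcinoma, 8 passed the filter, with KRT7 at 668 CPM, MSLN at 392 CPM and KRT8 at 337 CPM in the shNC group. The markers WT1 and KRT19 did not pass it (0 to 7 and 1 to 8 reads per library). PAX8 measured 10.1 CPM with shNC and 15.7 CPM with shNUF2, and EPCAM and CDH1 were low at 3.39 and 1.39 CPM with shNC. Summed FPKM (read counts scaled by gene length and library total) of this list was 399 to 425 with shNC and 373 to 402 with shNUF2. Summed FPKM was 9.44 to 10.1 and 7.36 to 8.24 for 7 fibroblast markers, 0.673 to 1.47 and 1.61 to 2.59 for 7 immune markers, and 0.263 to 0.439 and 0.462 to 0.759 for 5 endothelial markers. Of these lists 3, 2 and 2 genes passed the filter, and their part in the results below was not tested. Among them the fibroblast gene DCN rose from 3.66 to 8.48 CPM and COL1A1 fell from 81.7 to 62.4 CPM, and the endothelial gene CDH5, which passed the filter only through its shNUF2 reads, had 0.122 CPM with shNC and 1.46 CPM with shNUF2, while the T cell gene CD3E and the endothelial gene KDR had at most 1 read in any library. Of the 8 epithelial markers tested 4 rose and 3 fell, with KRT8 at a log2 fold change of 1.04 and MUC16 at -0.75.

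Reads on the 10 genes made up 0.266%, 0.265% and 0.262% of all counts in the shNC libraries and 0.414%, 0.444% and 0.433% in the shNUF2 libraries. All 3 shares with shNUF2 lay above all 3 with shNC, and the 95% Wilson intervals, which cover counting error only, ran from 0.260% to 0.269% over the shNC libraries and from 0.411% to 0.448% over the shNUF2 libraries. In length-normalized terms the 10 genes held 0.303% ± 0.00616 of all FPKM with shNC and 0.517% ± 0.0143 with shNUF2 (SD, n = 3). In RNA from whole cultures, a change in the number of cells that express a gene and a change in its RNA per cell cannot be told apart.

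**Figure D2:**
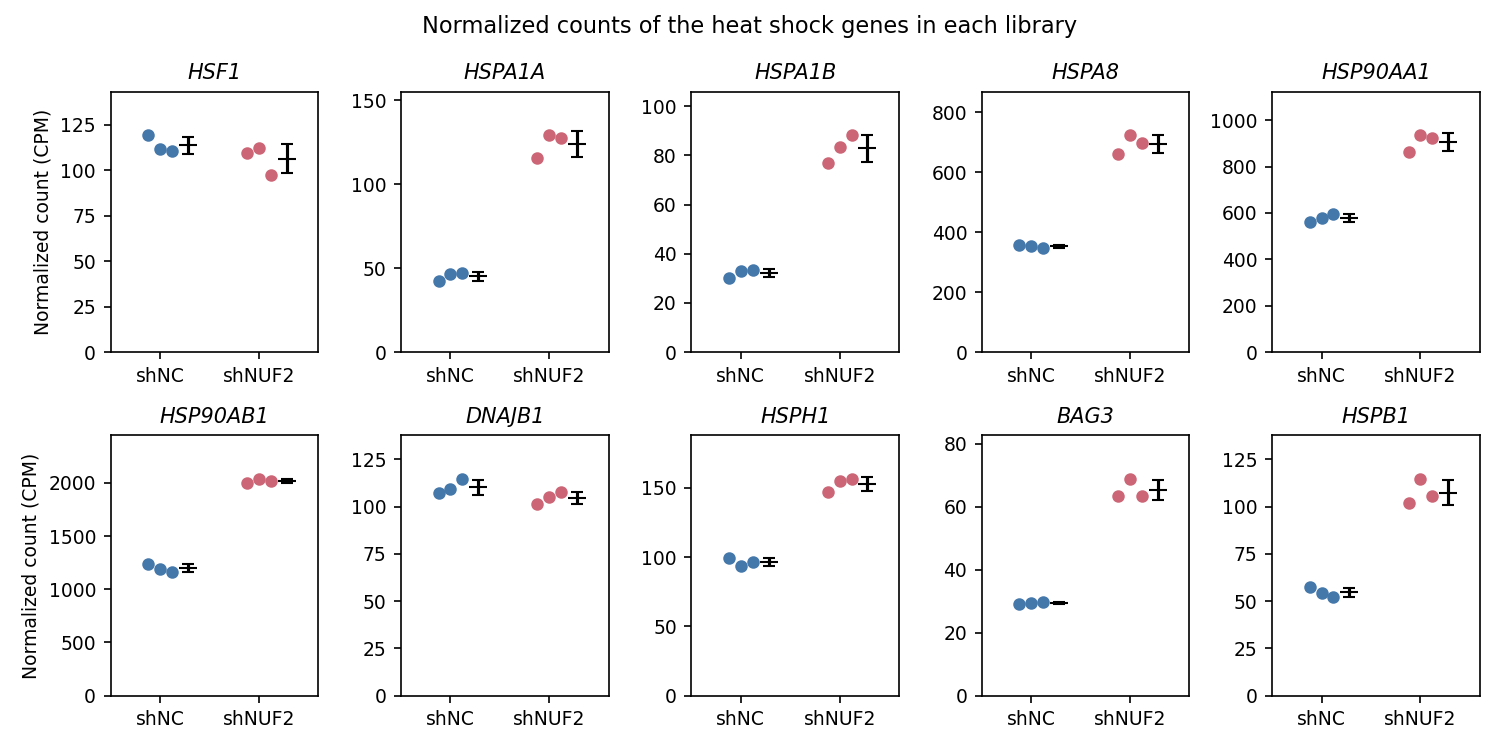
Normalized counts (CPM, TMM-scaled) of the 10 heat shock genes in each of 3 shNC (blue) and 3 shNUF2 (red) libraries, with the mean and SD in black and each axis starting at 0. In 8 genes the shNUF2 points all lie above the shNC points, and in HSF1 and DNAJB1 the groups overlap.

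The inducible HSP70 genes moved most. HSPA1A and HSPA1B lie next to each other in the major histocompatibility region (chromosome 6, 31815543 to 31817946 and 31827738 to 31830254, plus strand) and encode nearly the same stress-inducible HSP70. HSPA1A measured 42.2, 46.4 and 47.1 CPM with shNC and 115, 129 and 127 CPM with shNUF2. The lowest shNUF2 library was thus well above the highest control. HSPA1A rose by 1.45 on the log2 scale (SE 0.06, 95% interval 1.33 to 1.57, edgeR adjusted p = 1.65e-17). HSPA1B measured 30.2, 32.9 and 33.5 CPM with shNC and 77.0, 83.4 and 88.2 CPM with shNUF2. Its groups were likewise apart, and it rose by 1.36 (SE 0.07, 95% interval 1.22 to 1.50, edgeR adjusted p = 9.39e-16). The 2 transcripts cannot be told apart over much of their length: of 2384 windows of 100 bases in the HSPA1A transcript, 1666 (69.9%) occur unchanged in HSPA1B, and how the counting treated reads that match both is not given in the sources used here. Counted as 1 feature, the pair rose by 1.42 (edgeR adjusted p = 3.57e-18), a value that does not depend on how reads were divided between them. HSPA1B also overlaps AL671762.1 on the same strand.

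HSPA8 encodes HSC70, the constitutive HSP70 that folds new proteins and removes clathrin coats (chromosome 11, 123057489 to 123063230, minus strand). It measured 355, 352 and 349 CPM in the shNC libraries and 660, 722 and 698 CPM in the shNUF2 libraries. Controls differed little among themselves and every shNUF2 library was near 2-fold higher, with a log2 increase of 0.98 (SE 0.04, 95% interval 0.89 to 1.07, edgeR adjusted p = 6.25e-17). The interval includes the fold threshold of 1, which the study's methods give without naming a scale and which was read here as log2. HSPA8 has 17 pseudogenes named after it in GENCODE release 29 and carries SNORD14C, SNORD14D and SNORD14E within its span on the same strand, and its count is uncertain to that extent.

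HSPH1 and BAG3 serve HSP70 as nucleotide exchange factors. HSPH1 (HSP105, of the HSP110 family; chromosome 13, 31134973 to 31162388, minus strand) measured 99.6, 93.2 and 96.5 CPM with shNC and 147, 155 and 156 CPM with shNUF2. The groups did not overlap, and HSPH1 rose by 0.67 (SE 0.05, 95% interval 0.57 to 0.77, edgeR adjusted p = 2.69e-12). BAG3, which links HSP70 to small heat shock proteins and to selective autophagy (chromosome 10, 119651380 to 119677819, plus strand), measured 29.2, 29.5 and 29.8 CPM with shNC and 63.2, 68.8 and 63.4 CPM with shNUF2. The 3 controls were almost equal, and all shNUF2 libraries were more than 2-fold above them. BAG3 rose by 1.14 (SE 0.07, 95% interval 1.00 to 1.28, edgeR adjusted p = 4.39e-14).

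Both cytosolic HSP90 genes rose, by less than the HSP70 genes. HSP90AA1, the inducible alpha isoform (chromosome 14, 102080742 to 102139699, minus strand), measured 562, 578 and 596 CPM with shNC and 862, 934 and 925 CPM with shNUF2. Separation between the groups was complete, with a log2 increase of 0.65 (SE 0.04, 95% interval 0.56 to 0.73, edgeR adjusted p = 3.42e-13). HSP90AB1, the constitutive beta isoform (chromosome 6, 44246166 to 44253888, plus strand), had the highest counts of the 10 genes at 1238, 1192 and 1164 CPM with shNC and 1999, 2037 and 2016 CPM with shNUF2. It rose by 0.75 (SE 0.04, 95% interval 0.67 to 0.83, edgeR adjusted p = 2.62e-15), again without overlap. HSP90AA1 and HSP90AB1 have 4 and 5 named pseudogenes, and HSP90AA1 overlaps WDR20 on the opposite strand.

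HSPB1 encodes HSP27, a small heat shock protein that binds unfolding proteins without ATP and takes part in actin dynamics (chromosome 7, 76302673 to 76304295, plus strand). It measured 57.3, 54.1 and 52.2 CPM with shNC and 102, 115 and 106 CPM with shNUF2. All shNUF2 libraries were far above the controls, and HSPB1 rose by 0.98 (SE 0.06, 95% interval 0.86 to 1.10, edgeR adjusted p = 4.38e-14). GENCODE names 2 pseudogenes after it.

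HSF1 and DNAJB1 behaved differently from the rest. HSF1, on chromosome 8, is regulated mainly at the level of the protein. Its values were 119, 111 and 110 CPM with shNC and 110, 112 and 97.5 CPM with shNUF2. The ranges overlapped, with 1 shNUF2 library below all others, and the log2 difference was -0.10 (95% interval -0.21 to 0.02, edgeR adjusted p = 0.12). DNAJB1 encodes HSP40, the J-domain protein that delivers clients to HSP70 and is itself a classical heat shock gene (chromosome 19, 14514769 to 14560391, minus strand). Its values were 107, 109 and 115 CPM with shNC and 101, 105 and 108 CPM with shNUF2. These ranges overlapped as well, and the log2 difference was -0.07 (95% interval -0.18 to 0.03, edgeR adjusted p = 0.18). Neither interval reached the smallest log2 increase among the other 8 genes, 0.65. Scaling by library totals alone put both genes just past the threshold in the downward direction, at -0.13 for HSF1 (edgeR adjusted p = 0.032) and -0.11 for DNAJB1 (edgeR adjusted p = 0.049). With no filter beyond 1 count HSF1 also passed, at -0.12 (edgeR adjusted p = 0.038). Without shNUF2 replicate 3, the library below all others, the HSF1 difference was -0.036 (edgeR adjusted p = 0.60). In FPKM, which is scaled by library totals, neither gene overlapped between the groups: HSF1 had 21.1 to 22.6 FPKM with shNC and 18.1 to 21.0 with shNUF2, and DNAJB1 had 13.2 to 14.2 and 12.1 to 12.985 FPKM. HSF1 overlaps DGAT1 and AC233992.1, and DNAJB1 overlaps TECR and MIR639, on the opposite strand in each case. The kit marks strand, and whether the counting used it is not given in the sources used here.

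Among all genes tested, the 8 genes that rose stood in the upper part of the distribution of fold changes without being at its end. A higher log2 fold change than that of HSPA1A was found in 5.13% of the genes tested, and a higher one than that of HSP90AA1 in 16.1%. The median log2 fold change of the 10 genes was 0.86, and that of all genes tested was -0.01. By the study's thresholds, read as a log2 fold change beyond 1 with an unadjusted p under 0.05, 3 of the 10 genes were higher (HSPA1A, HSPA1B and BAG3) and 0 were lower, while 9.41% of all genes tested were higher and 4.16% lower. HSPA8 and HSPB1 missed that threshold narrowly, at 0.98 each. With only genes of at least 1 CPM in every library kept, or without shNUF2 replicate 1, both passed it and the count was 5. Without shNC replicate 1 it was 4. When a change beyond the threshold was itself tested by edgeR's TREAT test, 2 genes passed. In TMM-scaled CPM the groups did not overlap in 8 of the 10 genes, all of them higher with shNUF2, and in FPKM HSF1 and DNAJB1 were apart as well, in the downward direction. Such separation in CPM was seen in 70.6% of all genes tested.

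**Figure D3:**
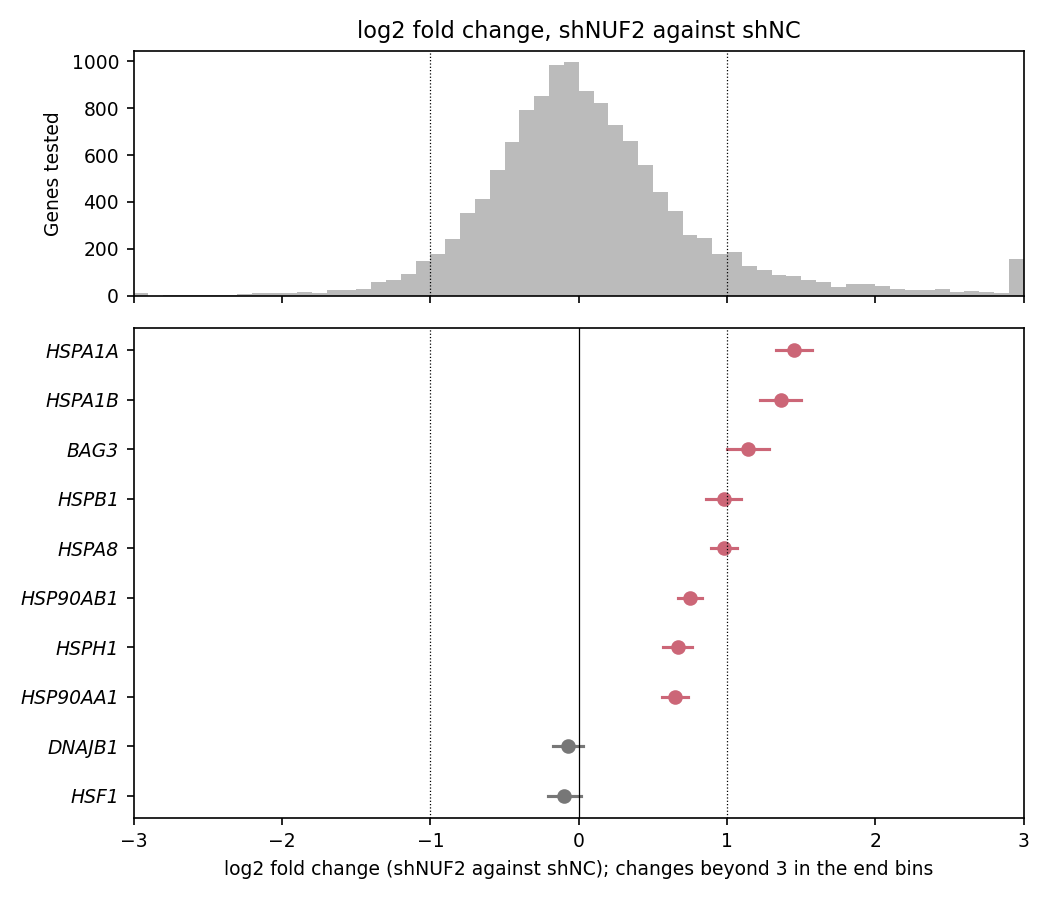
Upper panel, number of genes tested by log2 fold change (shNUF2 against shNC, bins of 0.1). Lower panel, log2 fold changes of the 10 heat shock genes with 95% intervals, red where the adjusted p is under 0.05 and grey otherwise, and dotted lines at -1 and 1. The 8 red genes lie between 0.65 and 1.45, and HSF1 and DNAJB1 lie close to 0.

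Levels of different genes were compared in FPKM, which takes account of gene length. With shNC the order of mean levels was HSP90AB1 at 407 FPKM, HSP90AA1 at 115, HSPA8 at 73.5, HSPB1 at 34.0, HSF1 at 21.7, HSPA1A at 19.1, DNAJB1 at 13.6, HSPA1B at 12.9, HSPH1 at 11.6 and BAG3 at 10.9. The 3 libraries of DNAJB1 and HSPA1B overlapped, and all other neighbours in this order were apart in these libraries. With shNUF2 the first 4 places were the same, at 668, 176, 141 and 65.3 FPKM. HSPA1A at 50.9 FPKM, HSPA1B at 32.5 and BAG3 at 23.5 then stood above HSF1 at 19.8, HSPH1 at 18.0 and DNAJB1 at 12.6. Here HSF1 and HSPH1 overlapped and the other neighbours did not. BAG3, the lowest of the 10 with shNC, was thus above 3 of the others with shNUF2, and DNAJB1 came last.

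The share of each gene in the summed FPKM of the 10 genes was also compared. HSP90AB1 accounted for 56.6% ± 0.949 of the sum with shNC and 55.3% ± 0.863 with shNUF2 (SD, n = 3), and its ranges overlapped. The share of HSPA1A went from 2.65% ± 0.192 to 4.21% ± 0.159 and that of HSPA8 from 10.2% ± 0.0608 to 11.7% ± 0.242. DNAJB1 went from 1.90% ± 0.0932 to 1.05% ± 0.0230 of the sum, and HSF1 from 3.01% ± 0.0835 to 1.64% ± 0.127. The shares of all genes other than HSP90AB1 did not overlap between the groups.

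**Figure D4:**
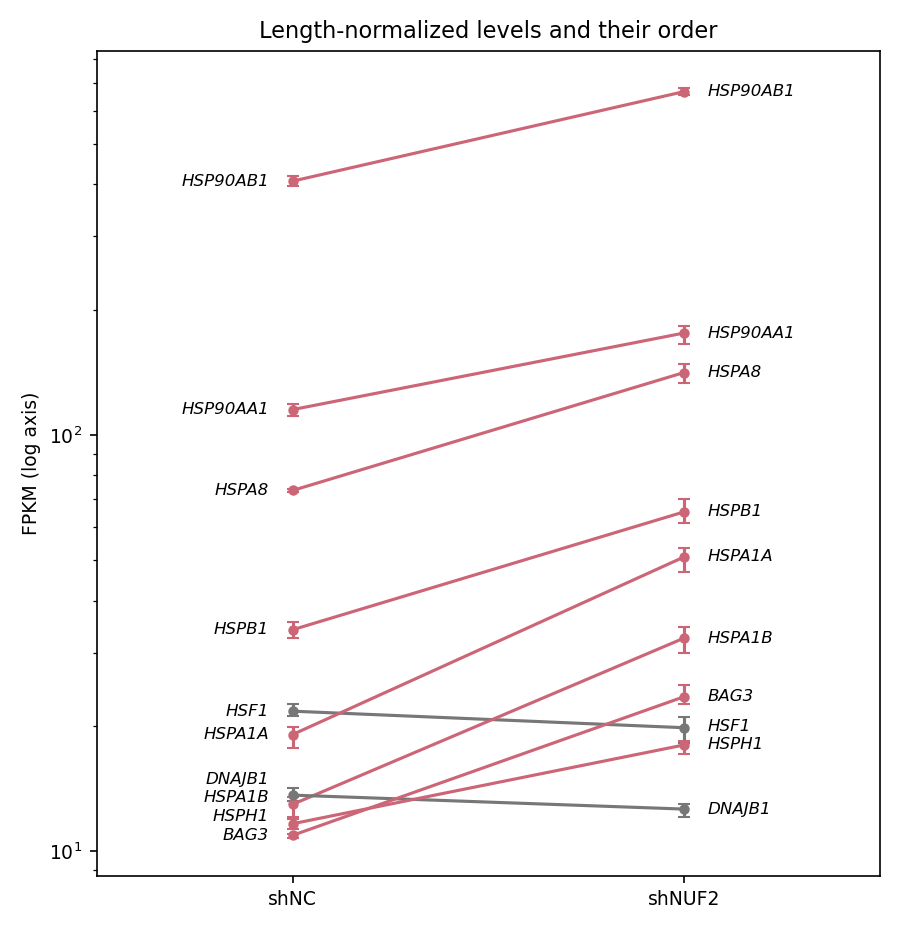
Mean FPKM (log axis) of the 10 heat shock genes in the shNC and shNUF2 groups, with bars from the lowest to the highest of 3 libraries, red for genes that rose and grey for genes that did not pass the test. Lines of HSPA1A, HSPA1B and BAG3 cross that of HSF1, and those of HSPA1B, BAG3 and HSPH1 cross that of DNAJB1.

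The balance between paralogs was compared within each library, where it does not depend on the scaling. The FPKM of HSPA1A plus HSPA1B divided by that of HSPA8, inducible against constitutive HSP70, was 0.403, 0.445 and 0.458 with shNC and 0.577, 0.583 and 0.611 with shNUF2. All 3 shNUF2 ratios were higher, with a log2 difference of 0.44 and an exact two-sided permutation p of 0.10, the smallest that 3 against 3 libraries allow (0.15 after Benjamini-Hochberg adjustment over the 3 ratios). The FPKM of HSP90AA1 divided by that of HSP90AB1 was 0.265, 0.284 and 0.300 with shNC and 0.252, 0.268 and 0.268 with shNUF2. These ranges overlapped, and the log2 difference was -0.10 (exact two-sided permutation p = 0.30, adjusted 0.30). HSPA1A divided by HSPA1B gave 1.46, 1.48 and 1.47 with shNC and 1.57, 1.62 and 1.51 with shNUF2. The shNUF2 ratios were all higher, by 0.09 on the log2 scale (exact two-sided permutation p = 0.10, adjusted 0.15), and how reads that match both paralogs entered this ratio is not known.

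The remaining genes of the pathway were described from lists chosen by function, some genes standing in more than one. Of 7 genes tested in a list of other heat shock factors, regulators of HSF1 and related genes, 5 rose and 1 fell, with a median log2 fold change of 0.33. DEDD2, a death-effector domain protein that is among HSF1 targets, rose by 1.05 (SE 0.08, edgeR adjusted p = 2.85e-12), from 23.0 to 47.5 CPM. IER5, an immediate early gene whose product activates HSF1, rose by 0.98 (SE 0.07, edgeR adjusted p = 7.88e-12), from 71.1 to 141 CPM. HSF2, the partner of HSF1, measured 24.9 ± 1.44 and 25.1 ± 1.27 CPM (SD, n = 3), a log2 difference of 0.01 (95% interval -0.18 to 0.19). The others that rose were HSF4, HSF2BP and the HSF1-binding HSBP1, at 0.32 to 0.58, and HSBP1L1 was the gene that fell, at -0.19 (edgeR adjusted p = 0.0494). The call of HSBP1L1 was lost with DESeq2 size factors, DESeq2's test or at least 1 CPM in every library, and without shNC replicate 2 or 3 or shNUF2 replicate 1 or 2.

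Of 15 other HSF1-dependent genes tested, 10 rose and 1 fell, with a median of 0.24 and 0 beyond the fold threshold. AHSA1, the activator of the HSP90 ATPase, rose by 0.78 (SE 0.07, edgeR adjusted p = 4.30e-11) and the small heat shock protein HSPB8, which works with BAG3, by 0.53 (SE 0.09, edgeR adjusted p = 6.42e-06). The gene that fell was HSPD1, the mitochondrial chaperonin HSP60, at -0.14 (SE 0.04, edgeR adjusted p = 0.00538). CRYAB had too few reads to be tested, with 0 in every shNC library and 4, 4 and 5 in the shNUF2 libraries.

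Among the other HSP70 genes of the cytosol, 4 of 6 rose and 0 fell. One of the 4 is HSPA6, which passed the filter only through its shNUF2 reads, and with at least 1 CPM required in every library the count was 3. The count was also 3 without shNC replicate 3, without shNUF2 replicate 1, 2 or 3, and in both limma fits on log2 FPKM. HSPA6, a strictly inducible HSP70 that is nearly silent in unstressed cells, was covered by 3, 3 and 1 reads in the shNC libraries and by 13, 17 and 19 in the shNUF2 libraries. The sums of 7 and 49 reads correspond to a ratio of 7.79 per total count (exact 95% interval 3.51 to 20.4, counting error only). HSPA2, the testis-enriched HSP70, rose by 1.63 (SE 0.25, edgeR adjusted p = 2.73e-06), from 2.19 to 6.69 CPM. HSPA1L, the neighbour of HSPA1A, rose by 0.74 (SE 0.24, edgeR adjusted p = 0.00785), from 2.58 to 4.33 CPM. Summed FPKM of the 6 genes was 9.57 to 11.3 with shNC and 12.1 to 12.5 with shNUF2, far below that of HSPA8. The other gene of the list that rose was HSPA12A, at 0.32 (SE 0.12, edgeR adjusted p = 0.0182).

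Most other J-domain genes rose. Of 12 cytosolic J-domain genes other than DNAJB1, 9 rose and 1 fell, with a median of 0.39. The gene that fell was DNAJC21, at -0.13 (edgeR adjusted p = 0.0125), a call that was lost without shNC replicate 3 or shNUF2 replicate 3. DNAJB5 rose by 1.67 (SE 0.27, edgeR adjusted p = 5.64e-06), from 1.36 to 4.32 CPM, and DNAJB4 by 0.98 (SE 0.07, edgeR adjusted p = 5.45e-12), from 29.2 to 57.8 CPM. Both are close relatives of DNAJB1. Of 10 nucleotide exchange factors and other HSP70 partners, 3 rose and 5 fell, with a median of -0.16, and the difference between these lists was not tested. BAG1 and BAG2, relatives of BAG3 that guide HSP70 clients to or away from the proteasome, fell by 0.67 (SE 0.05, edgeR adjusted p = 2.09e-12) and by 0.64 (SE 0.07, edgeR adjusted p = 1.68e-08). HSPBP1, the ubiquitin ligase gene STUB1 and HSPA4 also fell, and BAG5, BAG6 and ST13 rose. With library totals only, DESeq2's test, no filter beyond 1 count and both limma fits, 2 in place of 3 rose. The same held without shNC replicate 1 or 3 or shNUF2 replicate 1 or 3. With library totals only or no filter beyond 1 count, 6 in place of 5 fell, as without shNC replicate 1 or shNUF2 replicate 2.

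Co-chaperones of HSP90 rose in 10 of 14 genes tested and fell in 2, with a median of 0.26. CDC37, which brings kinases to HSP90, rose by 0.79 (SE 0.05, edgeR adjusted p = 1.28e-13), from 83.6 to 145 CPM. FKBP5, an immunophilin of steroid receptor complexes that glucocorticoids induce, fell by 0.93 (SE 0.11, edgeR adjusted p = 2.24e-08), from 25.9 to 13.5 CPM. The other gene that fell was CDC37L1, at -0.18 (edgeR adjusted p = 0.0329). Only 1 gene of the list fell with DESeq2's test or at least 1 CPM in every library. The same held without shNC replicate 3 or shNUF2 replicate 2. Of 8 other small heat shock protein genes only 2 could be tested, HSPB8, which rose as given above, and HSPB7, which fell by 0.40 (SE 0.17, edgeR adjusted p = 0.0414). The call of HSPB7 was lost with DESeq2's test, with at least 1 CPM in every library, and without shNC replicate 1 or 2 or shNUF2 replicate 1 or 3.

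**Figure D5:**
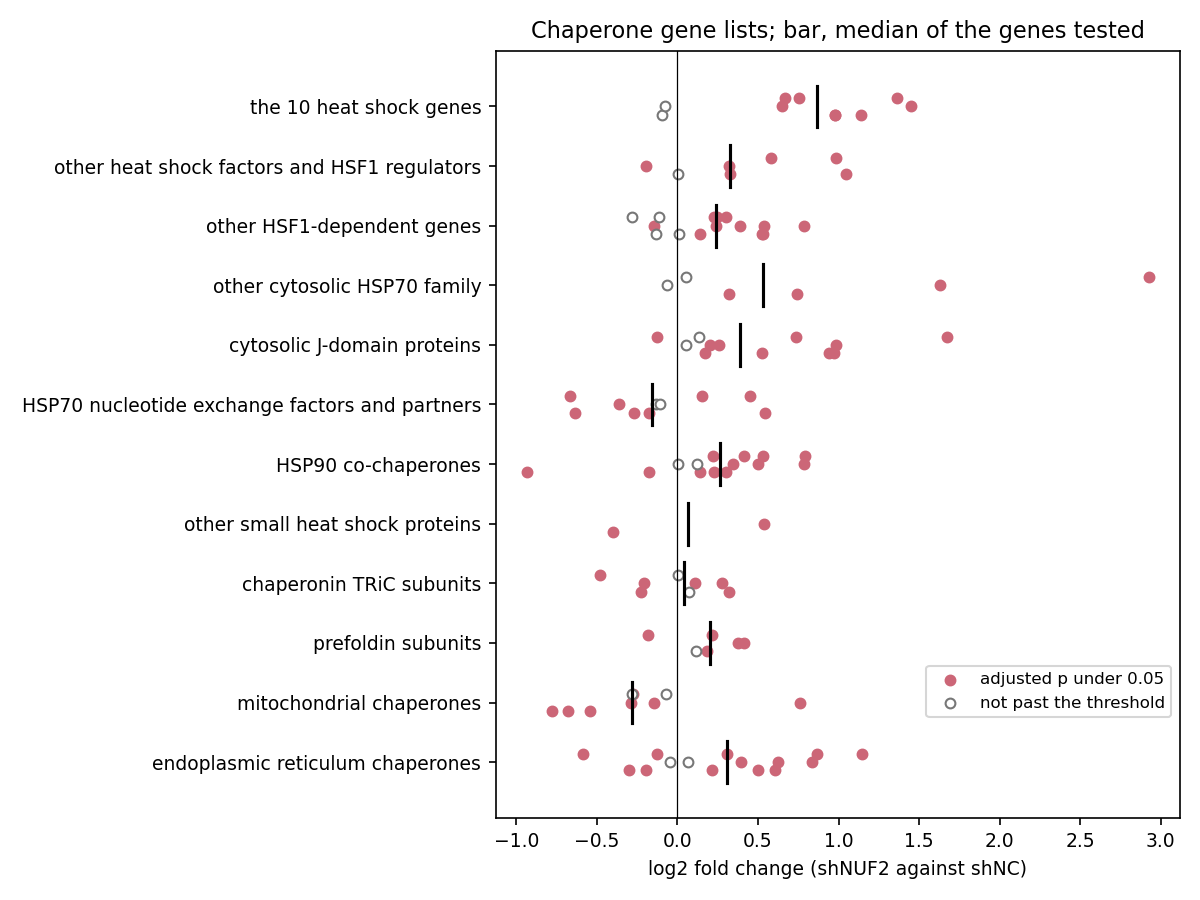
log2 fold change (shNUF2 against shNC) of each gene tested in 12 chaperone lists, filled where the adjusted p is under 0.05 and open otherwise, with a vertical bar at the median of each list. The 10 heat shock genes have a median of 0.86, and the bar of the other cytosolic HSP70 list, at 0.53, includes HSPA6, which passed the filter only through its shNUF2 reads. The remaining medians lie between -0.28 and 0.39, and that of mitochondrial chaperones is the lowest.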

How the data were processed

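OVCAR3 cells with shNC or shNUF2 were compared in 3 libraries each, grouped by the sample labels. Libraries were made with a stranded mRNA kit. Cutadapt, HISAT, HTSeq and the build GRCh38.p13 are named in the submitters' processing notes without versions, and the annotation release is not given in the sources used here. The authors deposited raw read counts per gene without normalization, and FPKM values that follow from the count, the gene length and the library total (largest relative deviation 2.71e-07). The GO and KEGG columns of the table were not used. Positions are as deposited, and overlaps and pseudogenes were read from GENCODE release 29.

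Counts were fitted with edgeR 4.0.16 in R 4.3.3 (filterByExpr, TMM, quasi-likelihood test, no covariate), with Benjamini-Hochberg adjustment over 12874 genes. Standard errors were derived from the log2 fold change and the F statistic. CPM were calculated from the TMM-scaled library. Alternatives used DESeq2 1.42.0, limma 3.58.1 on log2 FPKM with pseudocounts of 1 and 0.1, other scalings and filters, the replicate number as a block, HSPA1A and HSPA1B as 1 feature, and each library left out. The fit was tested on simulated data. Ratios and motif searches used Python 3.11.15 with scipy 1.17.1. Libraries within a group differed by more than counting error, and none was a duplicate.

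The 10 genes, the other gene lists and the tests were chosen with earlier results of these data known. From each other list, genes beyond a log2 fold change of 1 and the 2 with the largest change (average of at least 1 log2 CPM, adjusted p under 0.05) were named, and the gene with the highest counts could be. Of the lists, CRYAB, HSF2, HSPD1, HSPA5, the epithelial markers other than KRT8 and MUC16, CD3E, KDR and the genes named only to resolve a small count were chosen after their values were seen. Some genes that this rule names are not reported here. The lists of cell markers are described by their sums and counts. Intervals on shares cover counting error only.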

Additional observations from a re-analysis of the deposited data

How the results depend on the processing

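Of 158 recomputed log2 fold changes of the 10 genes, 155 kept their direction and their side of the threshold, 0 reversed, and the other 3 were HSF1 and DNAJB1 as given in the report. The count of genes that rose was 8 under every alternative except with HSPA1A and HSPA1B as 1 feature, where it was 7 of 9 with 2 beyond the fold threshold. The count that fell was 2 with library totals only and 1 with no filter beyond 1 count. Beyond the fold threshold, 5 genes were higher with at least 1 CPM in every library, and 3 to 5 when each library was left out in turn. Requiring elements of 3 units in place of 2 left 3 genes with a match, against 7. The replicate numbers did not pair the libraries, since same-numbered libraries had correlations of deviations of 0.02, 0.0046 and -0.03, and with the replicate block 8 genes rose, 0 fell and 3 were beyond the fold threshold. Over all genes, 1212 were higher and 536 lower by the fold threshold, against 430 and 206 by limma on log2(FPKM + 1), 756 and 397 with at least 1 CPM in every library, and 1770 and 634 with no filter beyond 1 count. For the other lists, 322 of 352 recomputed counts stayed within 1.5 times, and the genes of the heat shock factor, J-domain and small heat shock protein lists that fell (1 each) were at 0 under some alternatives. Of other HSF1-dependent genes, 1 fell, against 3 with library totals only. That count was 2 with no filter beyond 1 count, in both limma fits, and without shNC replicate 1 or shNUF2 replicate 2. Of HSP90 co-chaperones 2 fell. The count was 1 with DESeq2's test, with at least 1 CPM in every library, and without shNC replicate 3 or shNUF2 replicate 2. Of the prefoldin genes 2 in place of 4 rose without shNC replicate 1 or 2 or shNUF2 replicate 1 or 2. Low counts limit HSPA6, HSPA2, HSPA1L, DNAJB5, HSPB7 and CRYAB, and 3 libraries a group limit the ratios.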

Other observations

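Chaperones of other compartments were counted in the same way, without a test of the difference between lists. Of 9 mitochondrial chaperone genes tested, 1 rose and 6 fell, with a median log2 fold change of -0.28. TRAP1, the mitochondrial HSP90, fell by 0.78 (SE 0.05, edgeR adjusted p = 5.57e-14), from 173 to 101 CPM, and GRPEL1, the exchange factor of mitochondrial HSP70, rose by 0.76 (SE 0.06, edgeR adjusted p = 1.04e-11), from 44.6 to 75.7 CPM. The share of mitochondrially encoded genes was also lower in these libraries, as given above. Of 15 endoplasmic reticulum chaperone genes tested, 9 rose and 4 fell (SIL1, DNAJC10, CANX and HYOU1), with a median of 0.31. CALR, a calcium-binding lectin chaperone, rose by 1.15 (SE 0.04, edgeR adjusted p = 1.70e-18) and DNAJC3, a J-domain partner of HSPA5, by 0.86 (SE 0.05, edgeR adjusted p = 1.02e-14). CANX, the membrane-bound relative of CALR and the gene of the list with the highest average counts over both groups, fell from 2563 to 2243 CPM, a log2 fold change of -0.19 (SE 0.04, edgeR adjusted p = 5.04e-05). HSPA5 (BiP), the HSP70 of that compartment, rose from 1820 to 2769 CPM, a log2 increase of 0.60 (SE 0.04, edgeR adjusted p = 1.91e-13).

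The chaperonin TRiC, which folds actin and tubulin, and prefoldin, which hands it these clients, were compared as well. Of 8 TRiC subunit genes 3 rose (TCP1, CCT5 and CCT8) and 3 fell (CCT6A, CCT7 and CCT2), with a median of 0.04. Under most alternatives 2 in place of 3 rose, among them upper quartile scaling, library totals, DESeq2's test, no filter beyond 1 count, both limma fits, and the fits without shNC replicate 1 or 2 or shNUF2 replicate 2 or 3. CCT6A fell by 0.48 (SE 0.04, edgeR adjusted p = 1.75e-10) and TCP1 rose by 0.32 (SE 0.04, edgeR adjusted p = 2.47e-07). Of 6 prefoldin genes 4 rose (PFDN5, PFDN2, PFDN6 and PFDN4) and 1 fell (VBP1), with a median of 0.20. PFDN5 rose by 0.42 (SE 0.16, edgeR adjusted p = 0.0272) and PFDN2 by 0.37 (SE 0.06, edgeR adjusted p = 3.52e-06).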
